A study of Oryctolagus cuniculus with 16 samples.

Results

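The TGF-beta and BMP pathway genes were examined in the wall of the basilar artery (BA) and the basilar terminus (BT) of rabbits after a rise in blood flow. Members were chosen by gene symbol: the TGF-beta ligands and their latent binding proteins, the BMP, GDF and activin ligands, the receptors and co-receptors, the SMADs, the SMURF ligases, the ID genes and the secreted antagonists, with a few genes that share only the name. The rule matched 52 of 13788 symbols. Of these, 50 had a count in at least 1 library, against 11925 of all symbols, and the others, GDF3 among them, had 0 counts in every library. TGFB1, SMAD6, NOG, BMP7, ID4, LTBP3, LTBP4, ACVR2B, FSTL3, GDF1, GDF15, BMP8A and BMP8B were not analysed here.

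Female New Zealand white rabbits had both common carotid arteries ligated (rabbits 5 and 6) or underwent sham surgery (rabbits 3 and 4), and tissue was taken 24 h later. The ages of the rabbits are not given in the sources used here, and no rabbit carried a transgene or received a drug as part of the comparison. Intimal strips and the remaining media were laser-microdissected from frozen sections of the BA and of the wall flanking the apex of the BT, with tissue from several sections combined in each of the 16 samples. Each of the 8 combinations of location, layer and flow thus held 2 rabbits, and both locations and both layers came from the same 4 animals. Ligation raises the flow that reaches the basilar artery, and the comparison of ligated with sham rabbits asks which genes of the wall differ under high flow. Each intimal library held between 5211886 and 17686105 counts on named genes, and each medial library between 2154863 and 11219236. The members took 0.651% to 0.991% of the counts of an intimal library and 0.586% to 0.995% of those of a medial library. Replicates were separate rabbits, so the q-values below measure the spread between animals.

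Ligands of the TGF-beta family are dimers that bind a type II receptor, which activates a type I receptor, and the pair phosphorylates receptor SMADs that enter the nucleus with SMAD4. TGF-betas are secreted in a latent complex with a binding protein that tethers them to the matrix. In the endothelium, the type I receptor ACVRL1 (ALK1), the type II receptor BMPR2 and the co-receptor endoglin (ENG) transmit signals of circulating BMPs and induce the ID genes, whereas in smooth muscle TGF-beta is known for its control of contractile and matrix genes. The level of a gene is given throughout as CPM, its count relative to the TMM-scaled size of the library. Levels of the pathway genes are compared between libraries only. For the marker lists, the genes that weigh most in a sum are named.

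The layers were first checked with marker genes. The 8 endothelial markers in the matrix were summed, and VWF had the highest mean of them over the 16 libraries. In the intima the sum had a lowest value of 1210, a median of 3186 and a highest value of 5792 CPM. In the media, where ESAM exceeded VWF in every library, the corresponding values were 440, 841 and 1569 CPM. The layers overlapped only through the sham BT intima of rabbit 3. PECAM1, CDH5 and CLDN5 were higher in the intima, with log2 differences of 3.50, 2.83 and 4.12, whereas KDR did not exceed 15.6 CPM in any library and was at 0 in 5 of them. ESAM did not separate the layers, at 169 to 707 CPM in the intima and 367 to 702 CPM in the media. Of the 8 markers, 6 had a log2 difference above 0. The 5 smooth muscle markers, led by ACTA2, summed to 10577 to 74314 CPM in the intima and 67099 to 117970 CPM in the media, so that every intimal library also held smooth muscle transcripts. In such tissue, fewer cells of a type and less RNA per cell cannot be told apart.

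Markers of other cells differed between animals. The leptomeningeal and fibroblast list (9 of its 10 genes in the matrix, OGN the most abundant) summed to 9024 and 3239 CPM in the sham BA intima and to 3569 and 536 CPM in the ligated BA intima. In the BT intima the sums were 17627 and 4898 CPM under sham surgery and 220 and 469 CPM after ligation, with 5 of the markers, LUM, DCN and PDGFRA among them, at 0 in rabbit 5. The medial libraries held 18368 and 12417 CPM (BA) and 10855 and 14937 CPM (BT) under sham surgery, against 4560, 4024, 3108 and 4596 CPM after ligation. Rabbit 3 thus stood apart in the intima, and all 4 sham medial libraries lay above all 4 ligated ones. In the BT media OGN was lower after ligation without overlap (8323 and 11800 against 1449 and 1525 CPM). DCN (1648 and 2012 against 1229 and 2427 CPM) and LUM (747 and 439 against 274 and 446 CPM) overlapped there. Of the 9 markers, 1 had a log2 fold change above 0 in the BT media. The macrophage list (9 genes, TYROBP the most abundant) was highest, at 1096 CPM, in the sham BT intima of rabbit 3. It was at 56.7 to 505 CPM in the other intimal libraries and 66.0 to 336 CPM in the media, and 8 of its 9 genes were at 0 in the ligated BT intima of rabbit 5. The blood list, of which only S100A8 and S100A9 were in the matrix, summed to 27.9 and 461 CPM (BA) and 29.0 and 150.1 CPM (BT) in the sham intima, against 2602, 1800, 877 and 724 CPM after ligation. In the media its sums were 0 and 18.3 CPM (BA) and 0 and 11.8 CPM (BT) in sham rabbits, against 730, 39.3, 410 and 110 CPM in ligated rabbits. In each layer the 4 ligated libraries thus lay above the 4 sham libraries, and S100A9 rose in the BT media by 7.38 on the log2 scale (q = 0.00384, edgeR). The sums of the ligated intima were almost all S100A9. S100A8 was lower after ligation in the BT intima (11.9 and 17.3 against 5.27 and 0.906 CPM). In the BA intima it overlapped (1.58 and 145.9 against 28.5 and 0.513 CPM), and in the media it was higher after ligation at both locations. Pericyte markers, led by PDGFRB, summed to a median of 258 CPM in the intima and 626 CPM in the media. Markers of brain parenchyma did not exceed 10.9 CPM in sum. The blood sums, which in the intima rose through S100A9 and not S100A8, moved with every difference between ligated and sham libraries given below. The fibroblast sums moved with those in the media and the BT intima, and the macrophage sums with those in the BT intima. The part of these sums in the results was not tested.

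**Figure D1:**
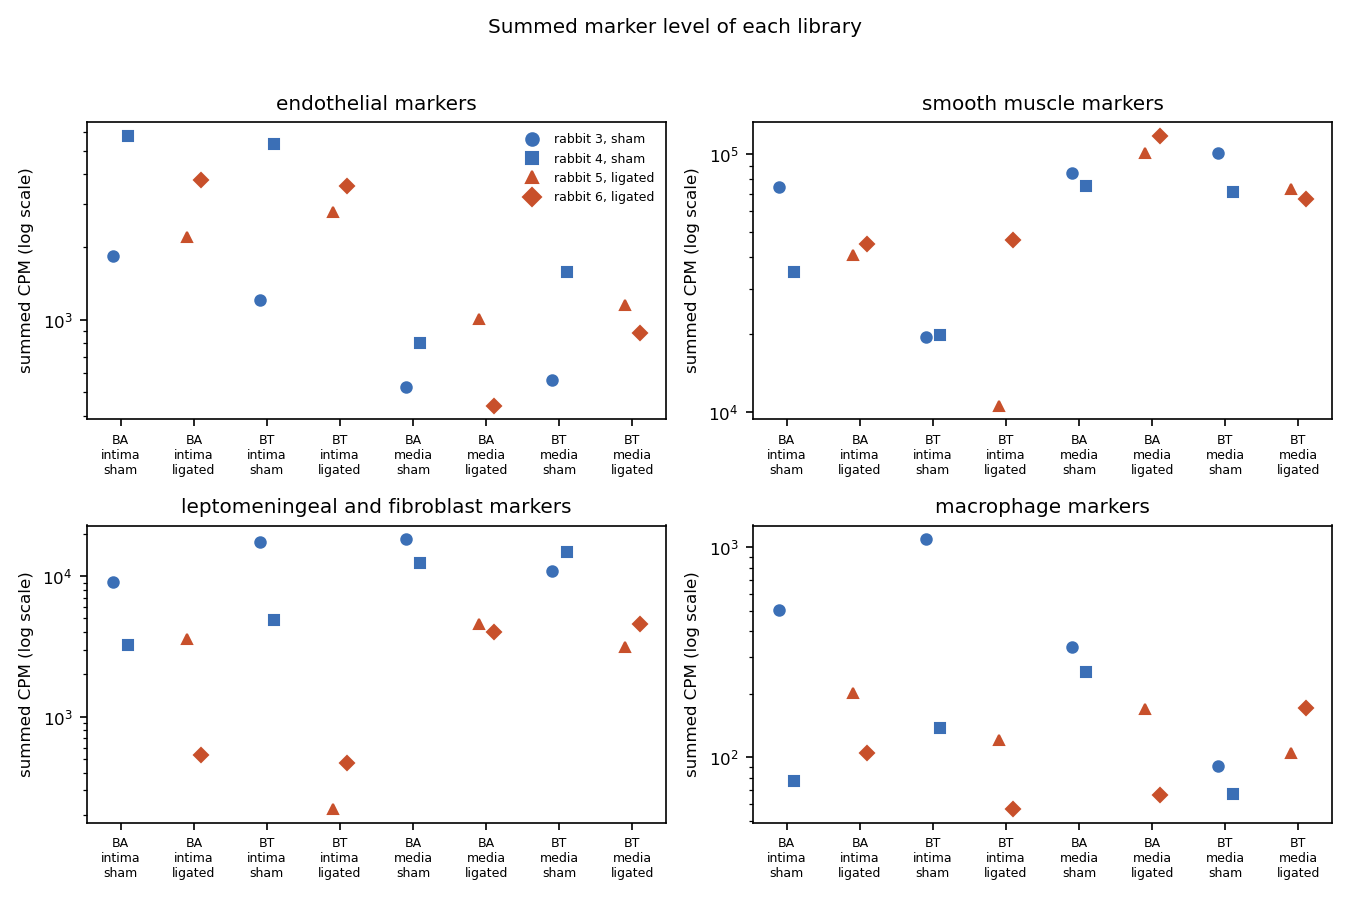
Summed CPM (log axis) of 4 marker lists in each of the 16 libraries, by layer, location and flow. Symbols mark the rabbits, blue for sham and orange for ligated. In the media the leptomeningeal and fibroblast sum is higher in all 4 sham than in all 4 ligated libraries, and over all libraries it is lowest, at 220 CPM, in the ligated BT intima of rabbit 5.

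The clearest difference among the pathway genes was between the layers. Receptors and a target of endothelial BMP signalling, ENG, ACVRL1, BMPR2 and ID3, were higher in the intima, whereas the ligands TGFB2 and TGFB3 and the type I receptor BMPR1A were higher in the media. For this comparison the counts of the BA and the BT were summed for each rabbit and layer, and edgeR's quasi-likelihood F test was run with the rabbit as a block. With Benjamini-Hochberg adjustment over all 9074 genes tested, 7 of 40 members passed q below 0.05 (17.5%), against 4.14% of all genes. The 4 members higher in the intima (10.0%) stood against 2.56% of all genes, and the 3 higher in the media (7.50%) against 1.59%.

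Endoglin, an endothelial co-receptor for TGF-beta and BMP ligands, had a lowest level of 5.41, a median of 41.4 and a highest level of 110 CPM over the 8 intimal libraries. In the media its levels were 0.290, 7.08 and 33.0 CPM. Of the 8 pairs from the same rabbit and location, 7 had more ENG in the intima, the exception being the ligated BA of rabbit 5 (17.4 CPM in the intima and 21.1 CPM in the media). The log2 difference between the layers was 2.27 (SE 0.35, q = 0.0189).

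ACVRL1, the endothelial type I receptor for BMP9 and BMP10, was at 13.1, 46.5 and 82.1 CPM (lowest, median, highest) in the intima and at 0, 5.68 and 20.5 CPM in the media. All 8 pairs were higher in the intima, although the lowest intimal libraries, both from rabbit 3, lay within the range of the media. The log2 difference was 2.89 (SE 0.54, q = 0.0344). The genes of its ligands, GDF2 (BMP9) and BMP10, had at most 5 counts in any library.

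BMPR2, the type II receptor for BMPs, had intimal levels of 197, 281 and 421 CPM and medial levels of 91.7, 167 and 257 CPM. It was higher in the intima in all 8 pairs, by 0.75 on the log2 scale (SE 0.16, q = 0.0483), with a gap of only 0.05 in the sham BT of rabbit 3. ID3, an inhibitor of DNA binding that BMP signalling induces, was at 160, 250.1 and 517 CPM in the intima and 109, 131 and 312 CPM in the media. Its 8 pairs were also all higher in the intima, with a log2 difference of 0.85 (SE 0.17, q = 0.0397). ID1, its close relative, had a median of 1740 CPM in the intima and 1213 CPM in the media. Of its 8 pairs 7 favoured the intima, but its log2 difference of 0.69 did not pass the test (SE 0.18, q = 0.0790). ID2 and SMAD1, a receptor SMAD of the BMP branch, were each higher in the media in 6 of 8 pairs. Neither was called.

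The ligand TGFB3 had levels of 38.4, 236 and 604 CPM in the intima and 392, 575 and 1286 CPM in the media. Every pair was higher in the media, with a log2 difference of -1.27 (SE 0.23, q = 0.0325), and the lowest intimal value came from the ligated BT of rabbit 5. TGFB2 was at 98.3, 144 and 318 CPM in the intima and 218, 401 and 630 CPM in the media, again with all 8 pairs higher in the media (log2 difference -1.20, SE 0.23, q = 0.0369). BMPR1A, a type I receptor for BMPs, had intimal levels of 93.4, 147 and 277 CPM and medial levels of 254, 375 and 674 CPM. It was higher in the media in 7 pairs and slightly higher in the intima in the sham BA of rabbit 3, and its log2 difference was -1.19 (SE 0.22, q = 0.0337).

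**Figure D2:**
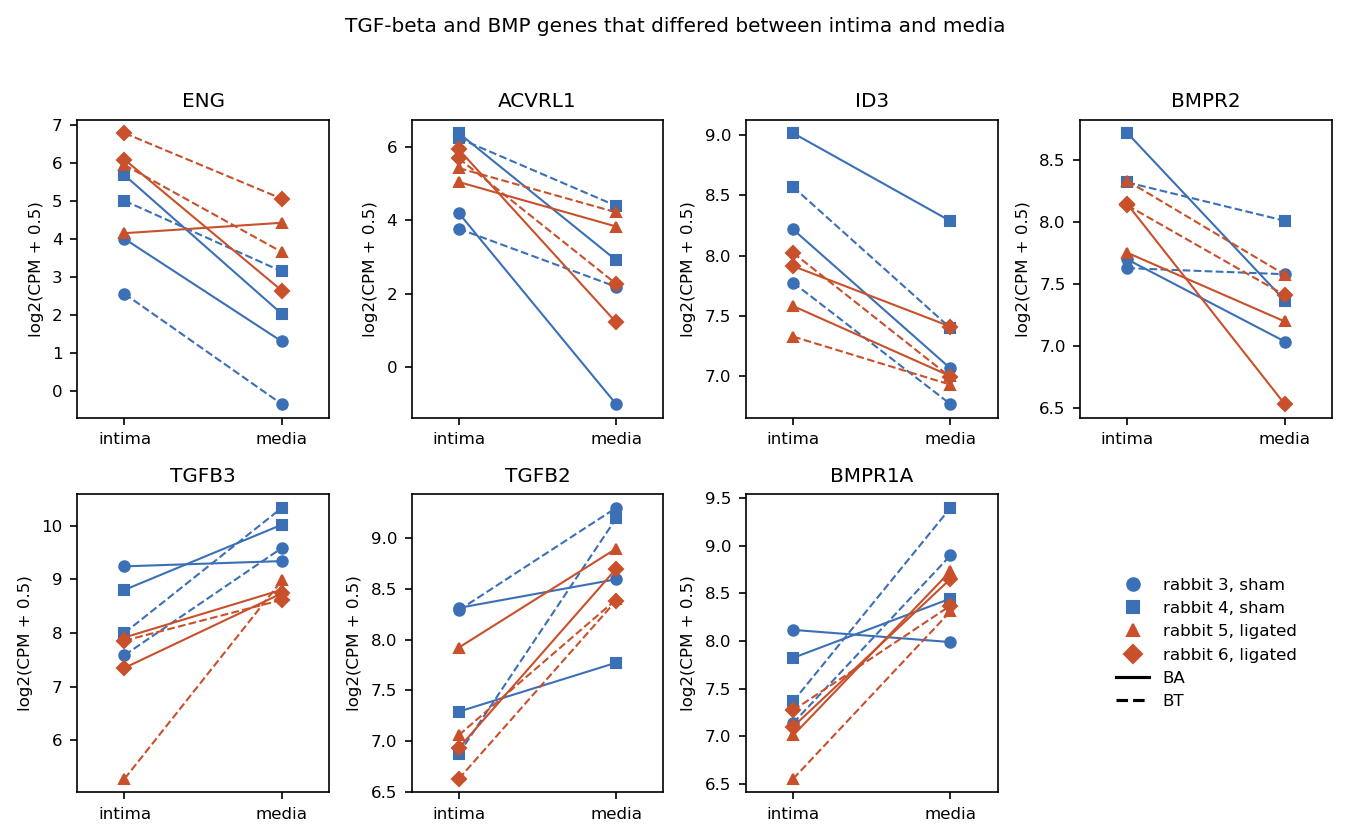
Levels of the 7 members that passed the test between the layers, as log2(CPM + 0.5), with a line for each of the 8 pairs from the same rabbit (symbol and colour) and location (solid for BA, dashed for BT). Lines fall from intima to media for ENG (7 of 8 pairs), ACVRL1, ID3 and BMPR2 and rise for TGFB3, TGFB2 and BMPR1A (7 of 8).

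Several members missed the threshold in this comparison. TGFBR1, the type I receptor for TGF-beta, had a median of 168 CPM in the intima and 276 CPM in the media (log2 difference -0.83, SE 0.18, q = 0.0524). SMAD2, a receptor SMAD of the TGF-beta and activin branch, was higher in the intima in all 8 pairs, at a median of 44.2 against 27.8 CPM (log2 difference 0.81, SE 0.24, q = 0.117). INHBA, which encodes the subunit of activin A, had a log2 difference of -0.86 (SE 0.28, q = 0.150), and the secreted antagonist FSTL1 one of -0.89 (SE 0.27, q = 0.128). TGFBR2, the type II receptor for TGF-beta, was at a median of 262 CPM in the intima and 242 CPM in the media. LTBP1, which tethers latent TGF-beta to the matrix, had medians of 2543 and 2652 CPM. Counted by pairs, 4 of 40 members (10.0%) were higher in the intima in all 8 and 2 (5%) were lower in all 8, against 5.41% and 3.95% of all genes.

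The layer differences moved with the marker sums, since each intimal library had a higher endothelial sum than the medial library of its pair. The part of these sums in the result was not tested. The calls also depended on single animals. Without rabbit 4 or without rabbit 6 no member passed, with 17 and 19 calls over all genes. Without rabbit 5 ENG, ACVRL1 and ID3 passed, and without rabbit 3 the number was 8, with ID3 lost. The signs of the 7 differences were the same in each of these fits. With no replicate block, BMPR1A and TGFB3 alone passed. DESeq2 called 14 members of 40, against 15.3% of all genes. Under RLE scaling the split was 3 higher in the intima and 4 higher in the media, and with library size alone 5 and 2. Over all genes, the share of calls that were higher in the intima was 61.7%, against 51.7% and 79.4% under these scalings. An exact sign-flip permutation test over the 4 rabbits cannot give less than p = 0.125, which all 7 genes reached.

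High flow was compared with sham surgery in 4 separate fits of 2 against 2 libraries. Of the members that passed the minimum of a mean above 1 CPM in at least 1 group, the BA intima had 39 and each of the other tissues 41. A single call came from these fits, the lower level of INHBA in the BT media after ligation. In the BT media 2.44% of the members and 2.35% of all genes were called. In the BA media no member was called, against 0.807% of all genes. In both intimal fits the calls were 0 for the members and 0% of all genes. At an unadjusted p below 0.05, members higher and lower after ligation numbered 1 and 2 (BA intima), 3 and 5 (BT intima), 3 and 7 (BA media), and 1 and 6 (BT media). The corresponding shares of all genes were 2.52% and 3.43%, 4.30% and 7.33%, 6.62% and 6.98%, and 7.96% and 7.99%. Of the members, 17.1% (BA media) and 14.6% (BT media) were thus lower at this level. DESeq2 called 1, 6, 3 and 4 members in this order, against 1.36%, 6.61%, 5.77% and 6.76% of all genes tested. The share of members above 0 on the log2 scale was 41.0%, 43.9%, 46.3% and 31.7%, against 45.8%, 45.1%, 44.7% and 50.85% of all genes tested.

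**Figure D3:**
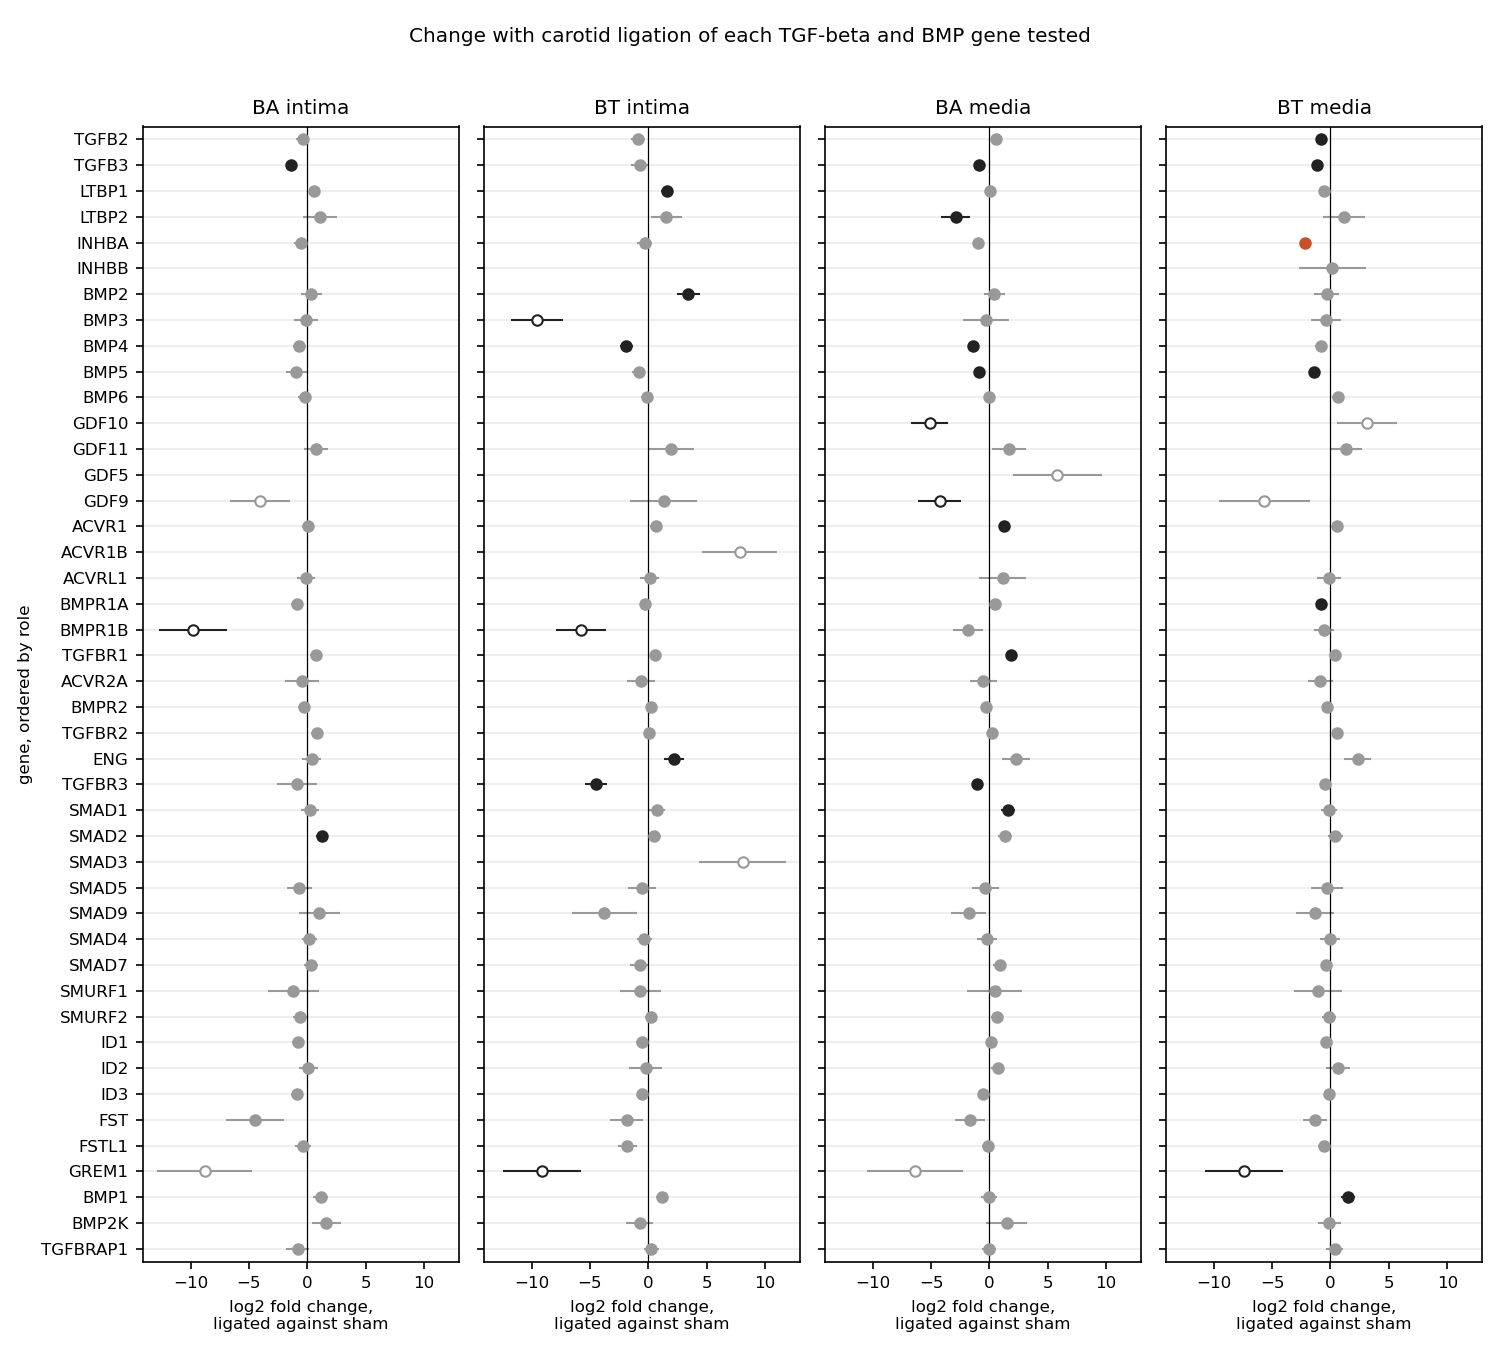
Log2 fold change of ligated against sham rabbits for each member tested, with its standard error, in the 4 tissues. The orange point passed q below 0.05 (INHBA, BT media), black points had an unadjusted p below 0.05 and grey points did not. Open points mark genes with 3 counts or fewer in every library of one group, whose fitted value depends on the prior count.

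INHBA gave the single call with ligation. In the BT media it was at 181 and 233 CPM in the sham rabbits 3 and 4, and at 57.3 and 34.4 CPM in the ligated rabbits 5 and 6. It fell by 2.17 on the log2 scale (SE 0.40, q = 0.0169). Markers of the medial cells were called in the same libraries. Of the 5 smooth muscle markers MYH11 fell by 1.70 (q = 0.0221), from 2127 and 1438 CPM to 445 and 641 CPM, and LMOD1 fell by 1.505 (q = 0.0438), from 340 and 494 CPM to 170 and 123 CPM. Of the 5 pericyte markers RGS5 fell by 3.43 (q = 0.00459) and ABCC9 rose by 2.06 (q = 0.0327). The other 3 markers of each list were not called, and the summed levels of both lists overlapped between sham and ligated libraries. In each list 2 of the 5 markers had a log2 fold change above 0. Of the smooth muscle markers, SMTN was higher after ligation without overlap (384 and 406 against 539 and 527 CPM). DES had a higher mean after ligation, with overlap (656 and 1180 against 1158 and 2609 CPM). The calls of MYH11 and LMOD1 were lost without rabbit 5 and without rabbit 6, and that of ABCC9 without rabbit 6. The part of these markers in the values of INHBA was not tested. In the BA media the same rabbits had 71.4 and 109 CPM under sham surgery and 57.0 and 35.9 CPM after ligation, without overlap (log2 fold change -0.94, SE 0.47, q = 0.427). In the intima the groups overlapped, with 74.5 and 50.9 CPM (BA) and 21.3 and 52.4 CPM (BT) under sham surgery against 58.1, 29.4, 34.6 and 23.6 CPM after ligation. The change in the BT media minus that in the BA media was -1.26, a difference that did not pass its own test (SE 0.49, q = 0.364). The call in the BT media was lost without rabbit 6 (log2 fold change -1.85, q = 0.204) and held without each of the other rabbits (q = 4.51e-05 to 0.0241). INHBB, the other activin subunit, had at most 13 counts in a library.

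The ligands TGFB3 and BMP5 were lower after ligation in all medial libraries without passing the test in either location. TGFB3 was at 646 and 1034 CPM (BA) and 766 and 1286 CPM (BT) in the sham media, and at 446, 426, 504 and 392 CPM in the ligated media in the same order. BMP5, a BMP ligand, was at 156, 122, 247 and 131 CPM under sham surgery and at 72.8, 74.2, 63.9 and 79.5 CPM after ligation. In neither gene did the sham and ligated libraries overlap. For TGFB3 the log2 fold changes were -0.93 in the BA (SE 0.32, q = 0.262) and -1.19 in the BT (SE 0.34, q = 0.0972). For BMP5 they were -0.91 in the BA (SE 0.38, q = 0.352) and -1.38 in the BT (SE 0.40, q = 0.108). With INHBA, 3 of 42 members (7.14%) lay lower in all 4 ligated than in all 4 sham medial libraries, against 7.06% of all genes, so that their share was near that of the background.

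The values of TGFB2 moved in opposite directions at the 2 locations of the media. In the BT it was at 630.4 and 587 CPM under sham surgery and at 337 and 334 CPM after ligation, and in the BA at 387 and 218 CPM against 477 and 415 CPM. The log2 fold change was -0.85 in the BT (SE 0.29, q = 0.176) and 0.57 in the BA (SE 0.36, q = 0.533). The difference between the locations was -1.48 (SE 0.35), just above the threshold at q = 0.0520. BMPR1A had values of the same order, at 477 and 674 CPM in the sham BT against 317 and 331 CPM in the ligated BT, and at 254 and 348 CPM in the sham BA against 425 and 402 CPM in the ligated BA. Its difference between the locations was -1.29 (SE 0.34, q = 0.0830). No member of 42 passed this interaction in the media, against 0.502% of all genes, and none of 41 did in the intima, against 0% of all genes. With DESeq2, BMPR1A, TGFB2 and TGFBR1 passed in the media and BMP3 in the intima, against 1.67% and 0.664% of all genes. At an unadjusted p below 0.05 the medial interaction had 2 members higher and 4 lower, against 4.13% and 4.94% of all genes, and the intimal one had 1 in each direction, against 1.09% and 2.35%.

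TGFBR1 was the member nearest to a call in the BA media. Its levels there were 179 and 96.02 CPM in the sham rabbits and 554 and 448 CPM in the ligated rabbits, without overlap. The log2 fold change was 1.87 (SE 0.39, q = 0.0767). In the BT media the levels were 228 and 292 CPM against 260.2 and 420.2 CPM, which overlapped (log2 fold change 0.40, SE 0.34, q = 0.606). The difference between the locations was -1.58 (SE 0.43, q = 0.107). TGFBR1 passed in the BA media when the 8 medial libraries were fitted together (q = 0.0193). ACVR1 (ALK2), a type I receptor for BMPs and activin, was at 120.1 and 124 CPM (BA) and 211 and 178 CPM (BT) in the sham media and at 343, 237, 249.9 and 305 CPM in the ligated media. It was the 1 member of 42 (2.38%) higher in all 4 ligated than in all 4 sham medial libraries, against 6.82% of all genes, and its log2 fold changes of 1.26 in the BA (SE 0.35, q = 0.168) and 0.53 in the BT (SE 0.32, q = 0.454) did not pass.

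**Figure D4:**
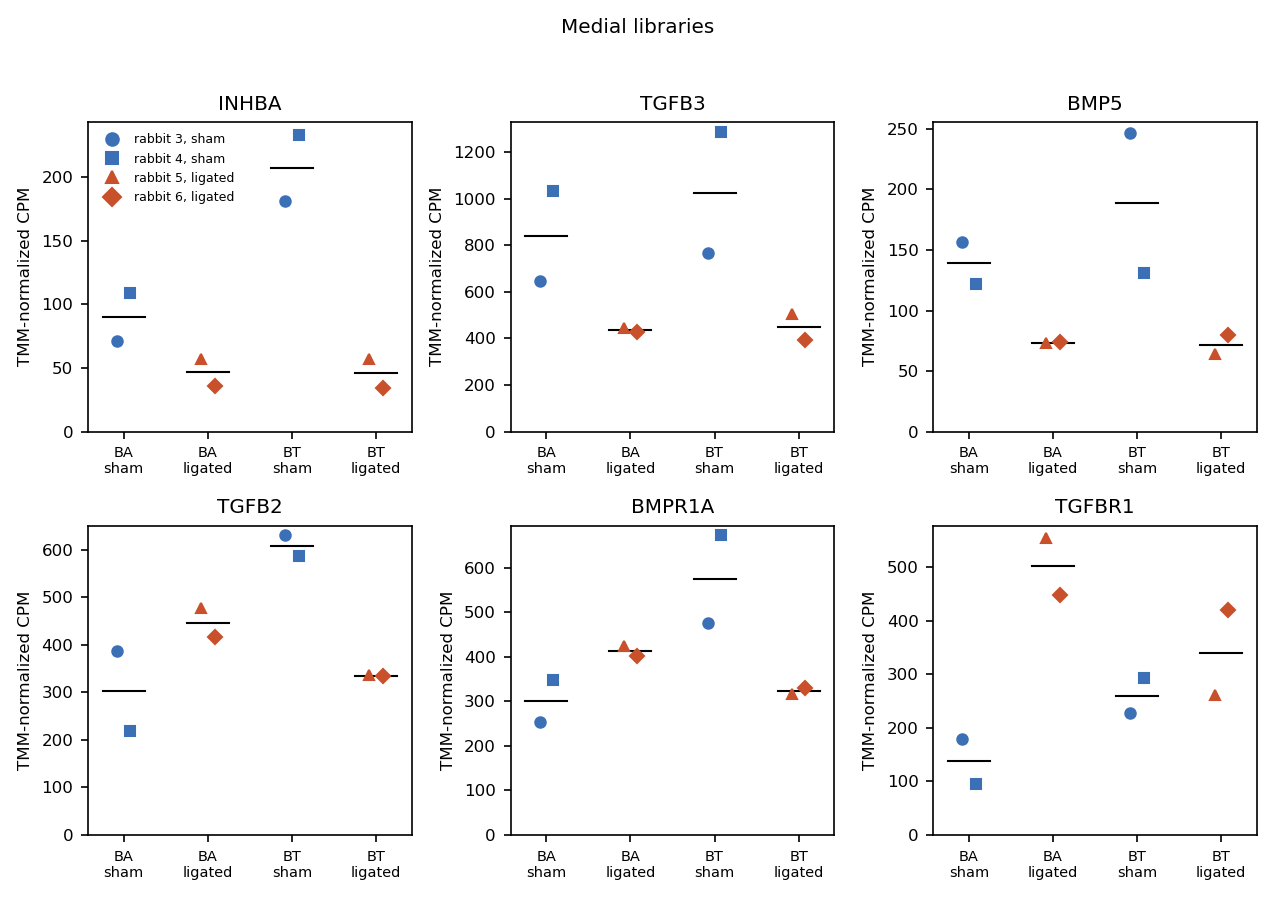
CPM of 6 members in each medial library by location and flow, with symbols for the rabbits and a bar at the mean of the 2 rabbits of a group. INHBA, TGFB3 and BMP5 are lower in the ligated libraries at both locations, whereas TGFB2 and BMPR1A are lower in the ligated BT and TGFBR1 is higher in the ligated BA.

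Other medial values missed the threshold by more. SMAD1, a receptor SMAD of the BMP branch, was at 13.4 and 15.0 CPM in the sham BA and at 54.3 and 32.0 CPM in the ligated BA (log2 fold change 1.61, SE 0.60, q = 0.302). SMAD2 was at 25.4 and 15.0 CPM against 35.9 and 66.0 CPM in the same tissue (log2 fold change 1.35, SE 0.60, q = 0.370). BMP1, which is a procollagen proteinase and not a BMP ligand, was at 13.1 and 36.0 CPM in the sham BT and at 83.5 and 57.3 CPM in the ligated BT (log2 fold change 1.52, SE 0.57, q = 0.215). LTBP2 was at 11.0 and 11.1 CPM in the sham BA and at 1.05 and 1.83 CPM in the ligated BA, where its lowest library held 2 counts (log2 fold change -2.87, SE 1.25, q = 0.365). In the BA media GDF10 had 136 and 114 counts under sham surgery and 2 and 0 after ligation, which is at least 13.3-fold lower (q = 0.216), and GDF9 had 101 and 53 counts against 2 and 0, at least 7.68-fold lower (q = 0.365). Without the ligated library of rabbit 5 these limits were 20.0-fold and 11.6-fold, and without that of rabbit 6 they were 9.94-fold and 5.75-fold. GDF10 in the BT media had 0 and 3 counts under sham surgery and 3 and 34 after ligation, so that the values lay in the other direction (q = 0.591).

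BMP4 and TGFBR3 were measured at lower levels in the ligated BA media. BMP4, a BMP ligand, was at 125 and 80.3 CPM under sham surgery and at 36.4 and 40.4 CPM after ligation (log2 fold change -1.41, SE 0.45, q = 0.226). TGFBR3 (betaglycan), the co-receptor that presents TGF-beta 2, was at 252 and 330.4 CPM against 138 and 142 CPM (log2 fold change -1.04, SE 0.34, q = 0.226). The sham and ligated libraries of this tissue did not overlap in either gene. The leptomeningeal and fibroblast sums, which were 18368 and 12417 CPM against 4560 and 4024 CPM there, moved with both genes. In the media they also moved with TGFB3, BMP5 and INHBA, and their part in the result was not tested.

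In the intima, no member was called at either location. LTBP1 was at 2210 and 2142 CPM (BA) and 996 and 2050.5 CPM (BT) in the sham rabbits and at 2876, 3719, 4616 and 4420 CPM in the ligated rabbits. All 4 ligated libraries lay above all 4 sham libraries. The log2 fold change was 1.57 in the BT (SE 0.51, q = 0.340) and 0.60 in the BA (SE 0.46, q = 0.885). In the media LTBP1 was at 3407 and 4134 CPM in the sham BT and at 2477 and 2619 CPM in the ligated BT (log2 fold change -0.56, q = 0.366), and at 2686 and 2205.5 CPM against 2978 and 1938 CPM in the BA, with overlap (log2 fold change 0.02, q = 0.987). Over both locations, the change in the media minus that in the intima was -1.34 (SE 0.30, q = 1.00). No member of 42 passed this comparison of the layers' changes, against 0% of all genes, with 1 higher and 2 lower at an unadjusted p below 0.05, against 2% and 1.4% of all genes. DESeq2 called BMPR1B and LTBP1 there, against 0.46% of all genes.

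SMAD2 and BMP1 were also higher in all 4 ligated than in all 4 sham intimal libraries. SMAD2 was at 34.0, 35.3, 44.0 and 20.35 CPM under sham surgery (BA then BT) and at 81.6, 84.2, 46.8 and 44.3 CPM after ligation, so that the groups were separated by less than 1 CPM in the BT. Its log2 fold change in the BA was 1.26 (SE 0.52, q = 0.807). BMP1 was at 14.9, 27.4, 32.7 and 26.5 CPM against 45.4, 46.5, 78.7 and 50.4 CPM, with a log2 fold change of 1.13 at each location. With LTBP1 these were 3 of 41 members (7.32%), against 5.54% of all genes.

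BMP2, a BMP ligand that endothelial cells can secrete, was in the BT intima at 4.40 and 10.4 CPM under sham surgery and at 131 and 23.7 CPM after ligation, with the highest value in rabbit 5 (log2 fold change 3.41, SE 0.97, q = 0.304). Without rabbit 5 the log2 fold change was 1.67. In the BA intima it was at 13.1 and 8.59 CPM against 10.3 and 17.5 CPM, with overlap. ENG was at 5.41 and 31.8 CPM in the sham BT intima and 61.5 and 110 CPM in the ligated BT intima (log2 fold change 2.22, SE 0.87, q = 0.408). The sham value of rabbit 3 was far below that of rabbit 4, so the size of this change depended on single animals. In the BA intima it was at 15.6 and 51.0 CPM against 17.4 and 67.9 CPM, with overlap. The difference of the change between the locations was 2.34 for ENG (SE 0.75, q = 1.00). The summed endothelial markers in the BT intima were 1210 and 5350 CPM under sham surgery and 2789 and 3583 CPM after ligation, with rabbit 3 lowest as for ENG. VWF and CLDN5 made up much of this sum. Of the other markers, PECAM1 (187 and 497 against 812 and 641 CPM), CDH5 (12.6 and 17.4 against 82.6 and 54.2 CPM), TEK (80.1 and 102 against 347 and 277 CPM) and ESAM (169 and 582 against 595 and 707 CPM) were, like ENG, higher in both ligated than in both sham libraries of the BT intima. The rest of the list did not follow ENG, since KDR was lower after ligation without overlap (15.6 and 5.86 against 0.518 and 0 CPM), and VWF (451 and 2574 against 241 and 673 CPM), CLDN5 (290 and 1561 against 707 and 1218.5 CPM) and TIE1 (5.35 and 10.8 against 5.01 and 12.8 CPM) overlapped. None of the 8 markers passed the test, and their part in the result was not tested.

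TGFBR3 had the lowest unadjusted p of the members in the BT intima. It was at 515 and 83.6 CPM under sham surgery and at 10.9 and 15.4 CPM after ligation, without overlap (log2 fold change -4.51, SE 0.93, q = 0.265). Without rabbit 3, in which it was highest, the value was -2.66 (q = 0.244), and without rabbit 4 it was -5.33 and passed (q = 0.00913). In the BA intima TGFBR3 was at 193 and 18.9 CPM against 113 and 0 CPM, with overlap. BMP4 was at 177 and 81.5 CPM in the sham BT intima and at 25.1 and 45.1 CPM after ligation (log2 fold change -1.89, SE 0.58, q = 0.324).

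Some members were nearly absent from one group of the intima. BMP3 had 122 and 56 counts in the sham BT and 0 in both ligated libraries, at least 32.5-fold lower (q = 0.281), whereas in the BA it had 68 and 502 counts against 118 and 151. BMPR1B, a type I receptor for BMPs, had 315 and 10 counts in the sham BA against 0 and 0, at least 22.2-fold lower (q = 0.734), and 59 and 80 counts in the sham BT against 3 and 0, at least 31.0-fold lower (q = 0.385). Without the sham library of rabbit 3 the limit for BMPR1B in the BA was 1.79-fold, and without that of rabbit 4 the limits were 42.6-fold in the BA and 15.8-fold in the BT. It was the 1 member of 41 (2.44%) lower in all 4 ligated than in all 4 sham intimal libraries, against 6.09% of all genes. GREM1 (gremlin 1), a secreted BMP antagonist, had 168 and 177 counts in the sham BA and BT intima of rabbit 3 and at most 1 count in the other intimal libraries. Rabbit 3 was also the animal with the highest leptomeningeal, fibroblast and macrophage sums of the intima, and their part in the values of TGFBR3, BMP4, GREM1, BMP3 and BMPR1B was not tested. In the BT intima, where BMP3 and BMPR1B were at or near 0 after ligation, the fibroblast sums were 17627 and 4898 CPM against 220 and 469 CPM and the macrophage sums 1096 and 138 CPM against 121 and 56.7 CPM. SMAD3 had 66 counts in the ligated BT intima of rabbit 5 and at most 2 in every other library. ACVR1B had 15 and 45 counts in the ligated BT intima, 1 count in the ligated BA intima of rabbit 6 and 0 elsewhere.

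**Figure D5:**
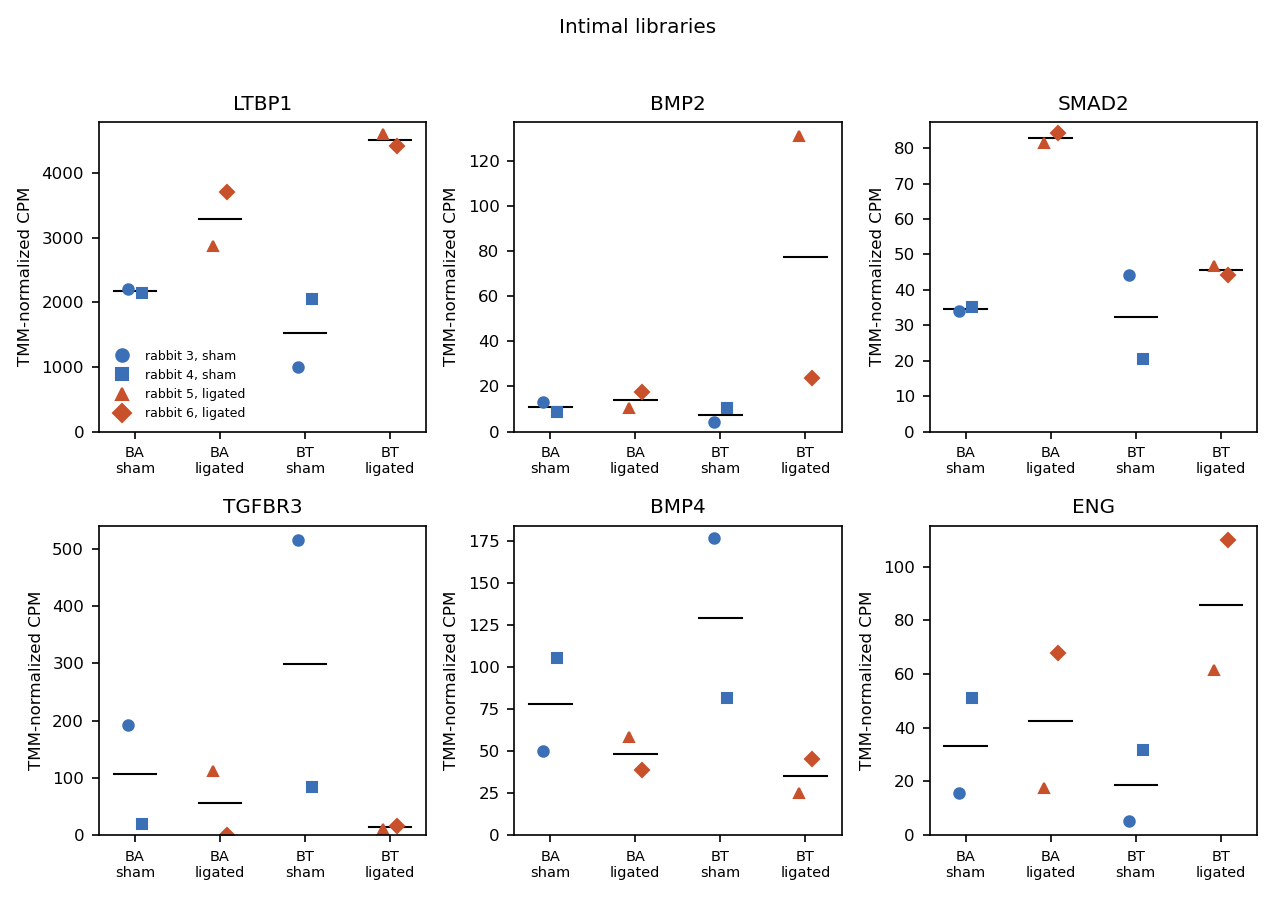
CPM of 6 members in each intimal library by location and flow, with symbols for the rabbits and a bar at the mean of the 2 rabbits of a group. LTBP1 and SMAD2 are higher in each ligated library than in each sham library, BMP2 is high in the ligated BT of rabbit 5 (131 CPM), and TGFBR3 is high in the sham libraries of rabbit 3.

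Further transducers and targets were not called with ligation in any fit. TGFBR2 ran from 98.7 to 342 CPM in the intima and from 93.5 to 352 CPM in the media. SMAD4, the shared partner of the receptor SMADs, was at 16.6 to 27.7 CPM in the intima and 4.67 to 33.8 CPM in the media. SMAD7, the inhibitory SMAD that TGF-beta induces, was at 19.3 to 93.7 CPM and 37.2 to 102 CPM, and the ubiquitin ligase SMURF2 at 18.0 to 54.3 CPM and 22.4 to 57.1 CPM. ID1 was at 1169 to 3170 CPM in the intima, with the 2 highest values in rabbit 4, and its log2 fold changes with ligation were -0.77 in the BA intima (SE 0.50) and -0.55 in the BT intima (SE 0.50). BMP6 ran from 72.1 to 244 CPM in the intima and 85.4 to 263 CPM in the media, with overlap of sham and ligated libraries in each layer. For FST (follistatin), which binds activin, the range was 0 to 18.9 CPM in the intima and 1.79 to 34.5 CPM in the media.

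Between the locations, with flow averaged and rabbit as a block, no member of 41 passed in the intima or in the media, against 0.011% and 0.0227% of all genes. At an unadjusted p below 0.05 there was 1 member in each direction in the intima (FST at 3.01 and TGFB3 at -1.16 on the log2 scale, BT minus BA), against 1.79% higher and 2.05% lower of all genes, and 1 higher and 2 lower in the media (BMPR2 at 0.61, ID2 at -1.70 and TGFBR3 at -0.54), against 2.45% and 2.83%. DESeq2 also called 0 members in both, against 0.394% and 0.634% of all genes.

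Genes outside the members were read from fixed lists, each described by its counts. Of 16 TGF-beta responsive genes tested in the BA media, 4 were called after ligation, against 0.807% of all genes, and 3 of them are described here. TNC (tenascin C), a matrix glycoprotein, rose by 2.24 on the log2 scale (SE 0.23, q = 0.0123), from 1832.5 and 1810 CPM to 9334 and 7712 CPM. The fibrillar collagens COL3A1 and COL1A2 fell by 1.69 (SE 0.26, q = 0.0366) and 1.495 (SE 0.26, q = 0.0481). The median log2 fold change of the list was 0.70, against -0.15 for all genes tested. In the BT media, where 2.35% of all genes were called, TNC rose by 1.87 (SE 0.29, q = 0.00691), whereas COL3A1 fell by 1.44 (SE 0.29, q = 0.0253) and CYR61, a matricellular gene, fell by 1.47 (SE 0.33, q = 0.0422). The list's median there was -0.03, against 0.03 for all genes. The fibroblast sums, which include the collagen COL1A1, were lower in the ligated media as well. Their part in the collagen values was not tested.

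Of 19 genes of latent TGF-beta storage and activation tested in the media, 2 were called at each location, against 0.807% (BA) and 2.35% (BT) of all genes. THBS1 (thrombospondin 1), which can activate latent TGF-beta, rose by 1.98 in the BA (SE 0.31, q = 0.0372). DCN (decorin), a proteoglycan that binds TGF-beta and is also 1 of the fibroblast markers, fell by 1.72 there (SE 0.30, q = 0.0481). In the BT media the plasminogen activators PLAT and PLAU rose by 3.03 (SE 0.47, q = 0.00676) and 2.30 (SE 0.41, q = 0.0137). PLAT was at 16.0 and 39.4 CPM in the sham BT media and 233 and 220 CPM in the ligated BT media. The medians of the list were -0.35 in the BA, or -0.23 with the genes at or under 3 counts in a group set at their bound, and 0.01 in the BT. In the intima 0 of 16 responsive genes and 0 of 18 (BA) and 19 (BT) storage genes were called by edgeR.

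The other lists held 1 call or 0 in each medial fit, where 0.807% (BA) and 2.35% (BT) of all genes were called. Of 11 extracellular BMP modulators tested in the BA media, SMOC2 fell by 4.52 (SE 0.76, q = 0.0448), from 66.6 and 140 CPM to 7.38 and 2.10 CPM, and none of the others passed there or in the BT media. The leptomeningeal and fibroblast sums in the same libraries were 18368 and 12417 CPM against 4560 and 4024 CPM, and their part in the values of this list was not tested. The list's median in the BA media was -2.59, or -0.78 with the genes at their bounds. Of 22 intracellular regulators, STRAP, a partner of SMAD7, rose by 1.84 in the BA media (SE 0.32, q = 0.0481) and FKBP1A, which binds type I receptors, rose by 1.47 in the BT media (SE 0.34, q = 0.0449). Of 8 BMP responsive genes none passed with ligation in the media, and the smallest q was that of MSX2 in the BT media (log2 fold change -2.03, SE 0.55, q = 0.0873). A single gene of the list of other family members was tested and it was not called. In the intima 0 genes of these 4 lists were called. All calls in the BA media, including those over all genes, were lost when any 1 of the 4 rabbits was left out. In the BT media the calls of TNC, COL3A1, CYR61, PLAU and FKBP1A were lost without rabbit 6, and all of these but TNC also without rabbit 5.

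Between the layers, 5 of 16 TGF-beta responsive genes were lower in the intima (COL3A1, COL1A2, TNC, ACTA2 and COL4A1, by 0.88 to 1.73 on the log2 scale), against 1.59% of all genes lower and 2.56% higher in the intima. Of 20 storage and activation genes, PLAT was higher in the intima by 1.14 (SE 0.20, q = 0.0276), and FBN1 and BGN were lower, with log2 differences of -1.08 (SE 0.15, q = 0.0130) and -1.39 (SE 0.29, q = 0.0462). GATA2, a transcription factor of endothelial cells in the BMP responsive list, was higher in the intima by 3.19 (SE 0.53, q = 0.0248), and MSX2 of the same list was lower, with a log2 difference of -1.499 (SE 0.29, q = 0.0397). The medians were -1.13, -0.74 and -0.61 for these 3 lists, against 0.07 for all genes. None of 11 BMP modulators and none of 22 intracellular regulators passed between the layers. Except for COL3A1, the calls of this paragraph were lost without rabbit 4 and without rabbit 6.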

How the data were processed

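RNA of several pooled sections per sample was amplified with SMART-Seq v4 and made into Nextera libraries. The authors mapped untrimmed single reads with STAR (oryCun2), kept unique ones and counted them over Ensembl exons with featureCounts 1.6.2, set for reverse-stranded reads. What they deposited is a matrix of unnormalised counts, 1 row per symbol, whose 16 columns all matched a sample's labels. The library kit does not mark the strand, so reads of a gene and of an antisense partner cannot be told apart. An entry that names no gene, with 13.8% to 18.7% of each library, was left out, and 22 symbols replaced by dates were kept as they stood.

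Members, gene lists and markers were chosen with earlier results of these data known. TMM factors were computed over all genes. Genes with a mean above 1 CPM in at least 1 group were tested with edgeR 4.0.16 in R 4.3.3 (quasi-likelihood F test, legacy form), and q-values were Benjamini-Hochberg adjusted over all genes tested, with a threshold of 0.05. Each comparison of flow set 2 ligated against 2 sham libraries. Those rabbits carry different numbers, so they were not paired. The samples of one rabbit come from one animal, and layer, location and interaction fits held the rabbit as a block. Standard errors were derived as the absolute log2 fold change divided by the root of F. Per library, 0 counts allow up to 3 (95%, counting error only), and folds against groups at or under this floor are lower bounds. Log2 ratios of pairs used a pseudocount of 0.5 CPM. The chi-square statistic comparing the counts of 2 replicates, divided by its degrees of freedom, was 18.6 to 414, so spread between rabbits exceeded counting error.

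Members named were those with a q below the threshold, in each fit of flow or interaction up to 5 per direction with the smallest p below 0.05, and up to 3 per role with the highest counts. List genes named were those past the threshold, or else those with the smallest p. Other values were chosen after they were seen. Results of some genes are not reported here. The fits were also run on simulated data, with no outcome of that step reported here. Alternatives were RLE scaling, library size alone, no filter, DESeq2 1.42.0, a fit per layer, other blocks, and leaving out each rabbit. Summaries used Python 3.11.15 with pandas 2.3.3 and numpy 2.4.6.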

Additional observations from a re-analysis of the deposited data

Results flagged for a closer look

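For 4 genes of the pathway lists, edgeR's interaction test with rabbit as a block found a different response to ligation at the 2 locations of the media. They were 2 of 16 TGF-beta responsive genes and 2 of 20 storage and activation genes tested, against 0.502% of all genes. The change in the BT minus that in the BA was -1.91 on the log2 scale for THBS1 (SE 0.33, q = 0.00276), which was at 1835 and 1230 CPM in the sham BA and 7235 and 4767 CPM in the ligated BA, but at 2363 and 3080 CPM in the sham BT and 2356 and 3370 CPM in the ligated BT. For DCN the difference was 1.61 (SE 0.35, q = 0.0256). DCN is also a fibroblast marker, and 2 of the 9 fibroblast markers tested were called here, both with a positive difference. The list was split, with 5 of the 9 above 0. At an unadjusted p below 0.05 (edgeR), 3 markers were higher and 2 lower, against 4.13% and 4.94% of all genes. Their part in the result was not tested. CTGF, a matricellular gene that TGF-beta induces, had a difference of -1.08 (SE 0.25, q = 0.0405), and ACTA2, smooth muscle actin, one of -0.76 (SE 0.18, q = 0.0496). With no replicate block none of the 4 passed (q = 0.349 for THBS1, 0.547 for DCN, 0.722 for CTGF and 0.734 for ACTA2), with the same signs. Under library size alone CTGF and ACTA2 were lost, and with DESeq2 THBS1 and ACTA2. Without 1 rabbit, DCN and ACTA2 were lost where rabbit 3 or 6 was left out and CTGF where rabbit 4, 5 or 6 was, whereas THBS1 passed in each.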

How the results depend on the processing

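With 2 rabbits per group, a single animal decided most calls, and the median depth was 5257563 counts in the medial and 10777693 counts in the intimal libraries, whose ranges overlapped. No result reversed its direction: of 1051 alternative values of 115 results, each of 1 gene in 1 comparison, 823 kept their side of the threshold, 174 lost it and 54 gained it. These results were members at an unadjusted p below 0.05 and list or marker genes called by edgeR, with the pair ratios of the members called between layers. Since that choice and the alternatives used the same libraries, kept signs were largely fixed in advance. The 823 include values not called in either fit. With all genes that had a count, the members called numbered 1 (BA intima), 2 (BT intima), 3 (BA media), 3 (BT media) and 3 (medial location by flow interaction). With DESeq2 they numbered 1, 6, 3, 4 and 3 in the same order, 14 between the layers, 1 in the intimal interaction and 2 in the layer by flow interaction. The fit over the 8 libraries of a layer gave 1 in the BA media. Leaving out each rabbit gave 0 to 1 (BA intima), 0 to 1 (BT intima), 0 (BA media), 0 to 6 (BT media), 0 to 8 between the layers, 0 to 1 in the intimal interaction and 0 to 2 in the medial interaction. Without the replicate block, 2 members passed between the layers, and with the pair as replicate block over 16 libraries 10 did. It changed no other count of members, and over all genes the medial interaction went from 47 calls to 2 and the medial location comparison from 2 to 0. Over all genes, calls ran from 0 to 126 (BA intima), 0 to 613 (BT intima), 0 to 508 (BA media), 38 to 645 (BT media) and 17 to 1391 between the layers. Library size alone moved the median of all genes by -0.13 in the BA media, 0.14 in the BT media, 0.18 between the layers and 0.28 in the medial interaction, and the share of calls that were higher was then 39.0%, 65.45%, 79.4% and 70.45%, against 53.5%, 49.5%, 61.7% and 42.55%. BMPR1B could not be tested in the BA intima without rabbit 3, where it missed the minimum level. The cause was not tested.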

Other observations

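As a description over the 8 libraries of a layer, which come from 4 rabbits and share depth and scaling, the genes whose CPM ranked most like INHBA in the media were ATP5MPL and DDX6 (Spearman's rho 1.00 over 8505 genes compared, with 17 genes at or above the fifth value). For ENG in the intima the nearest gene was SLC44A2 (rho 1.00 over 8714 genes, 13 at or above the fifth), and for TGFB3 in the media NRDE2 and TRA2A (rho 1.00, 20 at or above the fifth).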
